A study of Homo sapiens with 6 samples.

Results

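UVRAG, the Beclin complex and the autophagy core were followed as a set of 10 genes, chosen by name: UVRAG, BECN1, PIK3C3, ATG14, RUBCN, SQSTM1, MAP1LC3B, ATG5, ATG7 and ULK1. All 10 were found among the 21494 genes of the count table, and all 10 passed the filter on low counts, which kept 16756 genes for testing. RNA-seq had been performed on 3 samples carrying a control shRNA, whose genotype label is WT (Control sh), and on 3 samples carrying an shRNA against the coding region of DCAF1, labelled DCAF1 Knockdown (VprBP sh, after VprBP, the protein that DCAF1 encodes). Both groups are labelled as the human melanoma line G361, and per the methods of the study lentivirally infected cells were selected with puromycin, so that each group is a selected cell population with 1 shRNA. Comparing the groups asks which transcripts of the autophagy machinery differ in cells depleted of VprBP.

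Autophagy is the process by which a cell encloses cytoplasm in a double membrane, the autophagosome, and delivers it to lysosomes for breakdown. The kinase ULK1 starts the process, and the lipid kinase PIK3C3 (VPS34), held in a complex with BECN1 (Beclin 1), marks the membrane from which the autophagosome grows. BECN1 binds either ATG14, which directs the kinase to autophagosome formation, or UVRAG, which serves endosome traffic and autophagosome maturation, and RUBCN (Rubicon) inhibits the UVRAG form. ATG7 and ATG5 belong to the enzymes that attach LC3, the product of MAP1LC3B, to the growing membrane, where LC3 is bound by cargo receptors such as SQSTM1 (p62). Autophagy has been linked both to suppression of early tumours and to survival of established ones, melanoma included.

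The labels and the transcripts of these samples did not tell the same story about the cells, which bears on every difference given here. The labels give LD611 as the source beside G361. Of 8 melanocyte markers, 4 were in the count table. Their summed level was 197 to 234 normalized counts in the controls and 242 to 305 in VprBP sh. Most of it came from MITF (160 to 186 and 203 to 263), with PMEL at 30.1 to 43.6 and 34.9 to 38.1. MLANA had 1 to 5 counts and TYRP1 0 to 4 counts. TYR, DCT, SOX10 and S100B had no row in the count table, which holds only rows that sum to at least 10. Of 9 urothelial markers, 7 were in the count table, which had no row for UPK3A and KRT20. The summed level of the 7 was 92870 to 104200 normalized counts in the controls and 24840 to 28250 in VprBP sh, carried mostly by KRT5 and KRT7. UPK1B was at 0 counts in every VprBP sh sample, and UPK2 was lower there (202 to 218 and 28.7 to 55.4 normalized counts). UPK1A had 0 to 5 counts over all samples. GATA3 (0 to 8.03 and 1372 to 1746 normalized counts) and PPARG (213 to 344 and 694 to 742) were instead higher in VprBP sh. The 4 epithelial markers summed to 43130 to 46920 and 65100 to 70100 normalized counts, with KRT8, KRT18 and EPCAM higher in VprBP sh but CDH1 lower (9598 to 10640 and 5539 to 7007). Of 3 markers of leukocytes, endothelium and fibroblasts only PECAM1 was in the count table, at 11.5 to 25.8 and 17.7 to 31.1 normalized counts. Total counts ran from 20714418 to 24828293 in Control sh and from 18195949 to 26883948 in VprBP sh, and mitochondrial genes took 1.96% to 1.98% and 4.10% to 4.48% of them. Whether the groups differ in more than the shRNA cannot be told apart from the knockdown with these 6 samples, and the part of these markers in the results was not tested.

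DCAF1, the targeted gene, had 789, 961 and 830 normalized counts in Control sh and 753, 502 and 477 in VprBP sh, so that the groups did not overlap but VprBP sh replicate 1 stood near the lowest control. The log2 fold change was -0.58 (95% interval -0.97 to -0.19, SE 0.17), less than 2-fold, with an adjusted p of 0.0125 by the quasi-likelihood test of edgeR. With library size alone as the scaling the adjusted p from edgeR was 0.0851, and with replicates 2 and 3 of each group summed it was 0.0839. Normalized counts are counts scaled by upper quartile factors, and fold changes are those of VprBP sh over Control sh.

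Of the 10 genes, 2 rose in VprBP sh (UVRAG and MAP1LC3B), 1 fell (BECN1) and 7 were not called. A call required an adjusted p-value from edgeR below 0.05 together with a change of more than 2-fold. By this rule 24.5% of all tested genes were called higher and 22.0% lower, so that 2 and 1 of 10 are no larger shares than in the transcriptome at large. At any fold change, 7 of the 10 had an adjusted p-value below 0.05 (76.4% of all tested genes), and in 7 of the 10 the groups did not overlap (79.5% of all tested genes). The median log2 fold change of the 10 genes was 0.14, beside 0.08 for all genes tested. The set thus did not move in a single direction, and its members are described by role. In bulk RNA, fewer cells expressing a gene and less of its RNA per cell cannot be told apart.

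**Figure D1:**
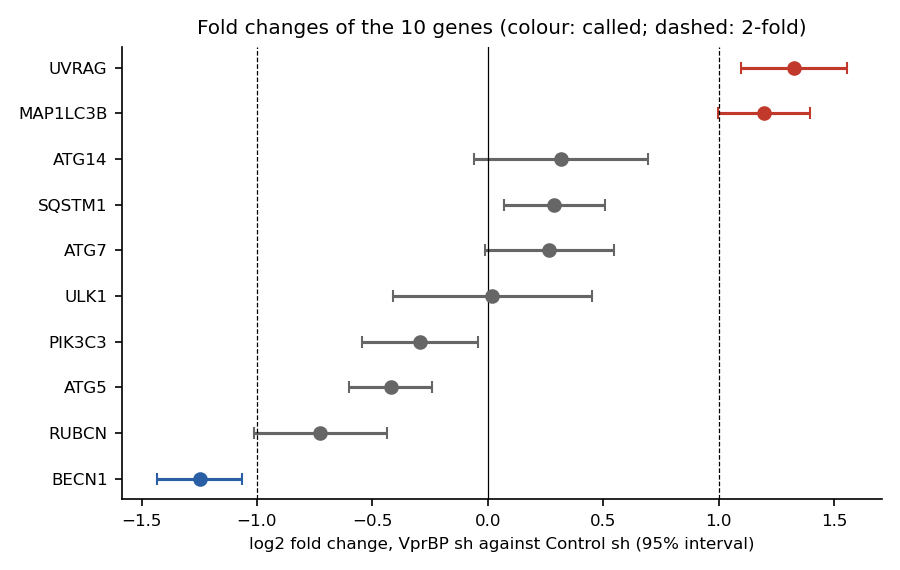
Log2 fold change (x axis) of each of the 10 genes (y axis) in VprBP sh against Control sh, with 95% intervals from edgeR, called genes in colour and dashed lines at 2-fold. The point estimates of UVRAG (1.33) and MAP1LC3B (1.20) lie beyond 2-fold on the right, that of BECN1 (-1.25) on the left, and the other 7 between them. The interval of MAP1LC3B reaches just below 2-fold.

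UVRAG is found at chr11:75815210-76144232 (hg38, plus strand). It had 281, 278 and 279 normalized counts in Control sh and 744, 695 and 664 in VprBP sh. The 3 control values were almost equal, and every VprBP sh value was more than double any of them. UVRAG rose from 279 ± 1.78 to 701 ± 40.2 (SD, n = 3), a 2.51-fold change (log2 fold change 1.33, standard error 0.10, adjusted p = 1.90e-06 from edgeR). The study displayed UVRAG among genes it had picked from these same samples, so its rise here is not independent evidence of that direction. By absolute fold change, 37.1% of all tested genes changed more than UVRAG. In GENCODE 44, UVRAG overlaps 8 other genes, of which 0 are protein-coding and 2 lie on its strand.

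BECN1, the scaffold of both kinase complexes, is at chr17:42810134-42833350 (minus strand). Its values were 2002, 1895 and 2005 normalized counts in Control sh and 865, 794 and 824 in VprBP sh, with a wide gap between the groups. BECN1 fell from 1967 ± 62.6 to 828 ± 35.8 (SD, n = 3), to 0.421 of the control level (log2 fold change -1.25, standard error 0.08, adjusted p = 6.27e-07 from edgeR). PSME3, which runs antisense to BECN1 and overlaps it by 300 exonic bases, had a log2 fold change of 0.06 (adjusted p = 0.553 from edgeR). CNTD1, also antisense to BECN1 and sharing 795 exonic bases with it, had 15 to 40 counts in the controls and 16 to 19 in VprBP sh, with a log2 fold change of -0.86 (adjusted p = 0.0515 from edgeR).

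PIK3C3, the catalytic subunit, is at chr18:41955234-42087830 (plus strand) and had 425, 503 and 469 normalized counts in Control sh and 398, 371 and 371 in VprBP sh. The groups did not overlap, but the gap was narrow. The log2 fold change was -0.29 (95% interval -0.54 to -0.04, adjusted p = 0.0351 from edgeR), which is far from 2-fold and was -0.08 (adjusted p = 0.533) when samples were scaled by library size alone. The adjusted p from edgeR was 0.132 without Control sh replicate 2, 0.0859 without Control sh replicate 3, 0.0941 without VprBP sh replicate 2 and 0.103 without VprBP sh replicate 3. With replicates 2 and 3 of each group summed it was 0.241.

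ATG14, the partner that competes with UVRAG for BECN1, is at chr14:55366391-55411830 (minus strand). It had 625, 394 and 425 normalized counts in Control sh and 618, 572 and 606 in VprBP sh. Control sh replicate 1 lay above all VprBP sh samples and the other two controls below them. The log2 fold change was 0.32 (95% interval -0.06 to 0.69, adjusted p = 0.111 from edgeR), and it was 0.54 (adjusted p = 0.00168) without Control sh replicate 1, still under 2-fold.

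RUBCN, the inhibitor of the UVRAG complex, is at chr3:197668867-197749727 (minus strand) and had 1160, 930 and 851 normalized counts in Control sh against 581, 630 and 567 in VprBP sh. All VprBP sh values were below all control values. The log2 fold change of -0.73 (standard error 0.13, 95% interval -1.01 to -0.44, adjusted p = 0.000549 from edgeR) corresponds to 0.605 of the control level and did not reach the 2-fold threshold.

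**Figure D2:**
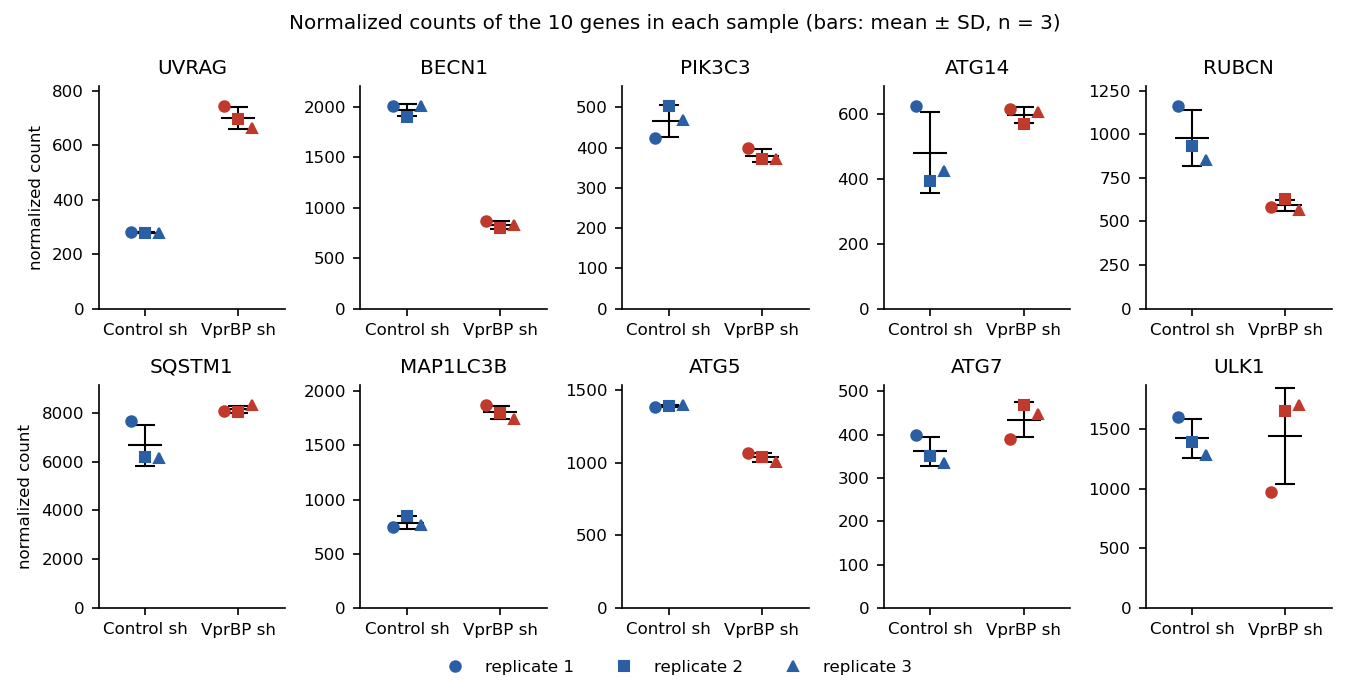
Normalized counts (y axis, from 0) of the 10 genes in each sample, with circles, squares and triangles for replicates 1, 2 and 3 and bars for the mean ± SD (n = 3). UVRAG and MAP1LC3B separate upward and BECN1 downward, while the groups overlap for ATG14, ATG7 and ULK1.

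MAP1LC3B, which encodes an LC3 protein, is at chr16:87383953-87404779 (plus strand). It had 744, 851 and 769 normalized counts in Control sh and 1869, 1804 and 1746 in VprBP sh, with no overlap and little spread within either group. MAP1LC3B rose from 788 ± 56.3 to 1806 ± 61.5 (SD, n = 3), a 2.29-fold change (log2 fold change 1.20, standard error 0.09, adjusted p = 1.45e-06 from edgeR). FBXO31 runs antisense to MAP1LC3B, overlaps it by 60 exonic bases, was itself among the genes the study displayed and had a log2 fold change of 1.07 (adjusted p = 0.000117 from edgeR). Use of strand in the counting is not given in the sources used here, so reads of that stretch could belong to either gene. The same limit holds for the other antisense overlaps. VGLL4 shares 1597 exonic bases with ATG7 and had a log2 fold change of 0.37 (adjusted p = 0.00534 from edgeR). FBXO34 shares 1047 exonic bases with ATG14 and had a log2 fold change of -0.40 (adjusted p = 0.00177 from edgeR). The near-identical MAP1LC3B2 was counted 5, 7 and 10 times in Control sh and 6, 14 and 17 in VprBP sh, few beside those of MAP1LC3B.

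SQSTM1, the receptor that carries ubiquitinated cargo to LC3, was the most abundant of the 10 transcripts and is at chr5:179806398-179838078 (plus strand). It had 7655, 6199 and 6174 normalized counts in Control sh and 8104, 8051 and 8310 in VprBP sh. The groups did not overlap, though Control sh replicate 1 came close to the VprBP sh samples. The log2 fold change was 0.29 (95% interval 0.07 to 0.51, adjusted p = 0.0219 from edgeR), and with edgeR's TMM factors 0.19 (adjusted p = 0.118). Without Control sh replicate 2 or 3 or VprBP sh replicate 2 or 3 the adjusted p from edgeR ranged from 0.0547 to 0.112. With replicates 2 and 3 of each group summed it was 0.233. MRNIP, on the opposite strand, shares 1582 exonic bases with SQSTM1 and had a log2 fold change of 1.58 (adjusted p = 1.78e-06 from edgeR), from 250 to 290 counts in the controls and 791 to 1104 with the knockdown.

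Neither conjugation enzyme among the 10 was called. ATG5, at chr6:106045423-106325791 (minus strand), had 1382, 1394 and 1394 normalized counts in Control sh and 1070, 1039 and 1007 in VprBP sh. Its values were tight in both groups and did not overlap, with a log2 fold change of -0.42 (95% interval -0.60 to -0.24, adjusted p = 0.000883 from edgeR) that stayed below 2-fold. ATG7, the activating enzyme, at chr3:11272309-11557665 (plus strand), had 399, 350 and 335 normalized counts in Control sh and 389, 467 and 447 in VprBP sh. Those ranges overlapped, and the log2 fold change was 0.27 (95% interval -0.01 to 0.54, adjusted p = 0.0726 from edgeR).

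ULK1, the initiating kinase, at chr12:131894622-131923150 (plus strand), had 1602, 1393 and 1279 normalized counts in Control sh and 975, 1649 and 1698 in VprBP sh. VprBP sh replicate 1 was the lowest of all samples and the other two of its group were the highest. The log2 fold change was 0.02 (95% interval -0.41 to 0.45, adjusted p = 0.933 from edgeR), and without VprBP sh replicate 1 it was 0.23. The interval is wide on both sides of 0, and equal levels were not shown.

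To compare levels between genes, counts were divided by the exon length in GENCODE 44 and scaled to a common total in each sample (TPM). In Control sh the order was SQSTM1 (157 ± 19.99 TPM, SD, n = 3), BECN1 (54.5 ± 1.58), ATG5 (43.6 ± 0.263), ULK1 (33.2 ± 3.85), MAP1LC3B (27.8 ± 2.06), ATG14 (17.0 ± 4.43), RUBCN (15.6 ± 2.57), ATG7 (7.27 ± 0.674), UVRAG (6.75 ± 0.0413) and PIK3C3 (5.46 ± 0.468). Among neighbours in this order, ULK1 and MAP1LC3B, ATG14 and RUBCN, and ATG7 and UVRAG overlapped in their sample values. In VprBP sh MAP1LC3B (69.1 ± 3.69 TPM) came next after SQSTM1 (208 ± 2.65 TPM), and BECN1 at 24.9 ± 1.42 TPM stood below MAP1LC3B, ULK1 and ATG5. ATG14 followed with 23.0 ± 1.12 TPM and UVRAG with 18.4 ± 1.41 TPM, and there ULK1 overlapped with ATG5 and BECN1, BECN1 with ATG14, and RUBCN with ATG7 in their sample values. With the length of the canonical transcript in place of all exons, SQSTM1 stayed first and PIK3C3 last in both groups, while BECN1 stood above ATG5 and ULK1 in VprBP sh.

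**Figure D3:**
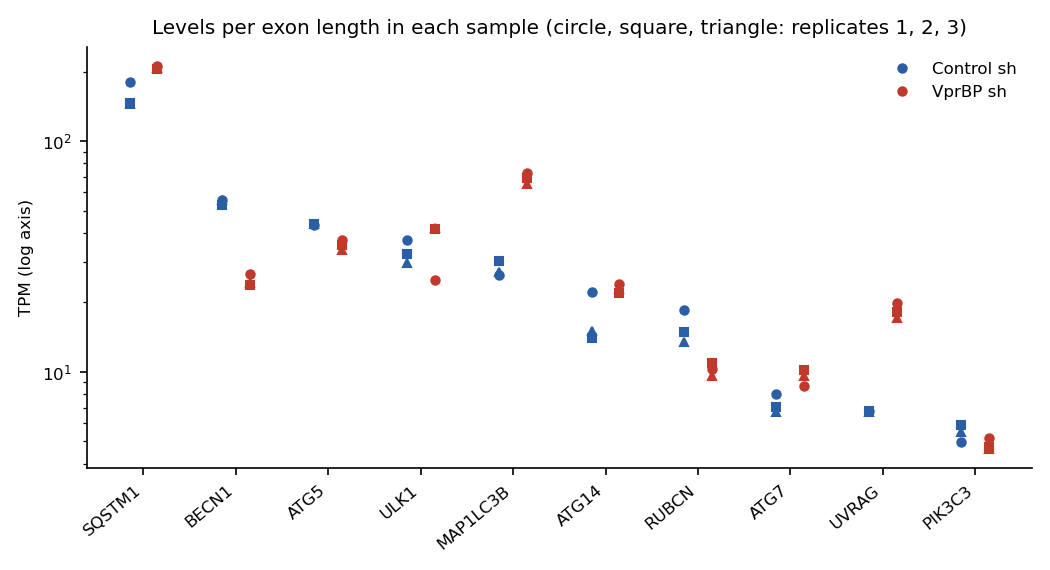
TPM per sample (y axis, log scale) of the 10 genes, ordered by their Control sh mean, with blue for Control sh, red for VprBP sh and symbols for replicates. In Control sh BECN1 lies far above UVRAG and ATG14, and in VprBP sh the levels of the 3 genes lie closer together (18.4 to 24.9 TPM), whereas with canonical transcript lengths BECN1 is at 45.0 TPM there, above UVRAG (15.7) and ATG14 (14.5).

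Ratios between the partners were formed within each sample, which no scaling between samples can alter. They were chosen after the values were seen and are given without a test. The TPM ratio of UVRAG to BECN1 was 0.123, 0.128 and 0.121 in Control sh and 0.7502, 0.764 and 0.704 in VprBP sh, 5.96-fold higher on average. That of ATG14 to BECN1 was 0.398, 0.266 and 0.270 against 0.911, 0.918 and 0.939. Both ratios were higher in every VprBP sh sample than in any control. Their levels depend on the length used: with canonical transcript lengths the means were 0.0585 and 0.349 for UVRAG to BECN1 and 0.109 and 0.323 for ATG14 to BECN1, with the same folds between groups. For UVRAG to ATG14 the ratio was 0.308, 0.482 and 0.449 against 0.824, 0.832 and 0.749, and for RUBCN to UVRAG 2.72, 2.21 and 2.01 against 0.515, 0.597 and 0.563. RUBCN, the inhibitor, was thus above UVRAG per length in every control sample and below it in every VprBP sh sample, with either length. UVRAG was below ATG14 in all 6 samples by exon length, but with canonical lengths its ratio to ATG14 was 1.01 to 1.12 in VprBP sh. Protein levels and complexes were not measured in these data.

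Another 81 genes of the autophagy pathway were listed by role, of which 78 were tested. Of these, 11 rose and 12 fell, and 55 were not called, shares that are below those of all genes tested. Their median log2 fold change was 0.27. Scaling by library size alone gave 18 higher and 10 lower.

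The membrane supply and initiation genes gave calls in both directions, beside 24.5% called higher and 22.0% called lower among all genes tested. Of the 4 further members of the ULK complex, RB1CC1 (FIP200), its scaffold, fell from 5058 ± 184 to 1122 ± 84.1 normalized counts (SD, n = 3, log2 fold change -2.17, adjusted p = 2.34e-08 from edgeR), and the other 3 were not called. Of the 11 genes of ATG9, ATG2 and WIPI proteins, WIPI1, which binds the lipid made by PIK3C3, rose from 102 ± 6.16 to 294 ± 54.0 normalized counts (log2 fold change 1.53). ATG2B, a lipid transfer protein, fell by 1.40 on the log2 scale, and ATG9B was counted 15, 11 and 13 times in Control sh and 2, 0 and 2 times in VprBP sh. The lipid kinase complexes held 1 further call among 5 genes. RUBCNL (Pacer), known as a partner of UVRAG that counteracts Rubicon, was counted 127, 270 and 257 times in Control sh and 0 times in every VprBP sh sample, at least 78.1-fold lower when set against 3 counts per sample. PIK3R4, the regulatory subunit of PIK3C3, had a log2 fold change of -0.65 and AMBRA1, a BECN1 activator, one of 0.52, neither of them called.

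The 9 further conjugation genes all had positive log2 fold changes, with a median of 0.93, and this held with TMM, DESeq2 and library size scaling. Of them 4 rose, where 24.5% of all tested genes were called higher, namely ATG4A (log2 fold change 2.11, adjusted p = 2.90e-06), ATG16L1 (1.91, adjusted p = 2.53e-07), ATG4D (1.89, adjusted p = 1.84e-07) and ATG4B (1.23, adjusted p = 1.41e-06, all from edgeR). ATG4 proteases trim LC3 and its relatives, and ATG16L1 brings the ATG5 conjugate to the membrane. Among the relatives of MAP1LC3B, GABARAPL1 went from 1406 ± 50.7 to 704 ± 87.5 normalized counts (log2 fold change -0.997), just short of the threshold, and was called lower under 9 of the 12 alternatives, with TMM (-1.09) and DESeq2 (-1.12) among them. GABARAP (-0.01) and GABARAPL2 (0.33) were not called. MAP1LC3A and MAP1LC3C had no row in the count table.

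Of 13 cargo receptors other than SQSTM1, 9 had negative log2 fold changes, with a median of -0.81 beside 0.08 for all genes tested. Of them 5 fell and 0 rose, where 22.0% of all tested genes were called lower and 24.5% higher. The medians kept their sign with TMM, DESeq2 and library size scaling, although library size alone added 1 gene called higher. RETREG1, a receptor for endoplasmic reticulum, fell from 210 ± 16.6 to 7.44 ± 2.01 normalized counts (SD, n = 3, log2 fold change -4.79, adjusted p = 1.08e-07 from edgeR). OPTN, which binds ubiquitinated cargo, fell by 2.78, and the mitophagy receptors BNIP3 and BNIP3L fell by 2.02 and 1.36 on the log2 scale. CALCOCO2 (NDP52), the remaining one, had a log2 fold change of -1.22.

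Among 16 genes of tethering and fusion with lysosomes, 2 rose and 0 fell. Both shares are below those of all tested genes, of which 24.5% were called higher and 22.0% lower. VPS11, a core subunit of the HOPS tethering complex with which UVRAG interacts, rose from 219 ± 30.8 to 1363 ± 31.6 normalized counts (SD, n = 3, log2 fold change 2.63, adjusted p = 5.32e-08 from edgeR), and YKT6, a fusion protein, had a log2 fold change of 1.06, which was 0.96 with TMM and 0.94 with DESeq2 and then not called. LAMP1 (0.69) and LAMP2 (0.46), lysosomal membrane proteins, were not called. Of 17 regulators, 4 rose and 3 fell, shares no larger than those of all tested genes. With library size alone 6 rose and 1 fell. DEPTOR, an inhibitor of mTOR, was counted 3, 9 and 1 times in Control sh and 57, 124 and 148 in VprBP sh. TP53INP2, which binds LC3, rose by 3.29 on the log2 scale, and BCL2, which holds BECN1 inactive, rose from 27.3 ± 6.54 to 198 ± 22.2 normalized counts (log2 fold change 2.86, adjusted p = 1.82e-06 from edgeR). BCL2L1, which also binds BECN1, had a log2 fold change of -1.16, but of -0.94 with library size alone and -0.98 without Control sh replicate 1, where it was not called. TFEB, a transcription factor for lysosomal and autophagy genes, fell from 290 ± 43.8 to 47.0 ± 9.29 normalized counts (log2 fold change -2.61). Its relative TFE3 had a log2 fold change of -1.004, at the threshold, and was not called under 4 of the 12 alternatives. These were library size alone (-0.79), the replicate block (-0.998), without Control sh replicate 1 (-0.91) and without VprBP sh replicate 3 (-0.98). PRKAA2, a subunit of AMPK, had a log2 fold change of 1.01, also at the threshold, and was not called under 6 of the 12 alternatives, with TMM (0.91), without Control sh replicate 2 (0.93) and without VprBP sh replicate 1 (0.81) among them.

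**Figure D4:**
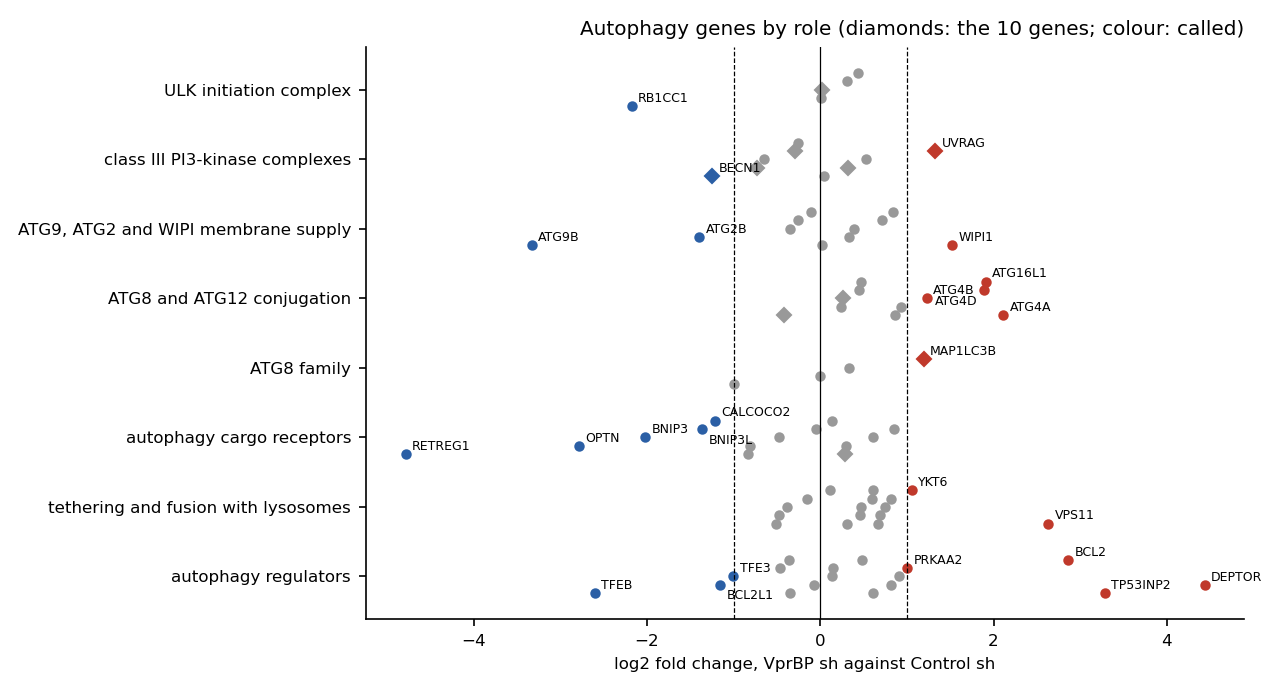
Log2 fold changes (x axis) of the autophagy genes tested, by role (y axis), with diamonds for the 10 genes, red for called higher, blue for called lower, grey for not called and dashed lines at 2-fold. RUBCNL, with 0 counts in VprBP sh, is not drawn. Conjugation genes lie mostly to the right of 0, with ATG5 to the left, and cargo receptors reach furthest to the left, at -4.79 for RETREG1.

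The genes around the members were read out, as their position had no part in the choice. Within 1 Mb of the UVRAG start, 15 protein-coding genes were tested, with a median log2 fold change of 1.23 beside 0.08 for all genes tested. Of these 13 were higher in VprBP sh, and 8 were called higher and 1 lower, where 24.5% of all tested genes were called higher and 22.0% lower. The nearest on the left, DGAT2, had a log2 fold change of 1.41, MOGAT2 had 0 counts in every Control sh sample and 215, 402 and 549 in VprBP sh, MAP6 had -2.93 and SERPINH1 0.18. On the right THAP12 had 1.45, GVQW3 2.56, EMSY 1.23 and TSKU 0.88. UVRAG, at 1.33, lay close to this median. Within 0.5 Mb the median was 0.79 over 8 genes.

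**Figure D5:**
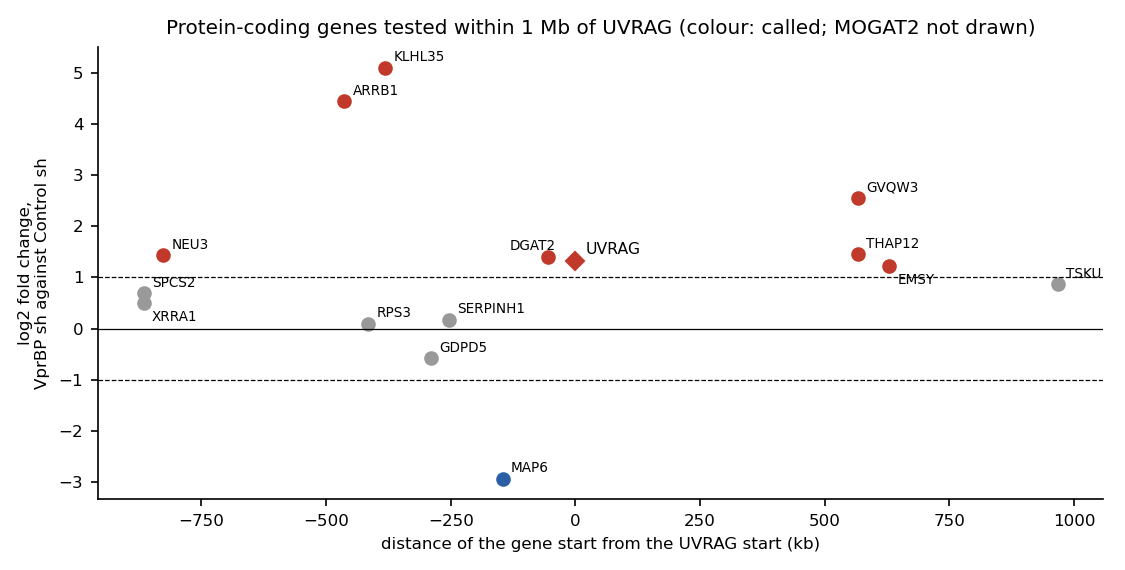
Log2 fold change (y axis) of protein-coding genes tested within 1 Mb of UVRAG against the distance of their start from that of UVRAG (x axis, kb), with red for called higher, blue for called lower and grey for not called. MOGAT2, with 0 counts in Control sh, is not drawn, and all 4 genes on the right of UVRAG lie above 0.

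Around MAP1LC3B, 10 genes had a median log2 fold change of 1.20, equal to that of MAP1LC3B itself. Of these 6 were called higher and 2 lower, where 24.5% of all tested genes were called higher and 22.0% lower. Around BECN1 the median of 51 genes was -0.52, and BECN1 (-1.25) lay below it. Of the 51 genes, 11 were called lower, about the share of all tested genes, and 5 higher, below that share. SQSTM1 lay below the median of its surroundings, in which 17 genes had a median of 1.06 and 10 were called higher, while its own value was 0.29. Around RUBCN the median of 12 genes was -0.55, and -0.19 over 7 genes within 0.5 Mb. In 3 members the sign was opposite to that of the surroundings: ATG5 (-0.42 beside a median of 0.65), ATG14 (0.32 beside -0.24) and ULK1 (0.02 beside -0.22). Within 0.5 Mb these medians were 0.37, 0.25 and -0.49. Around ATG7 (0.27) the median was 0.15. Whether any of these stretches changed as a whole, and from what cause, was not tested.

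Across the 6 samples, the genes whose profile lay closest to that of UVRAG were SRD5A1, NPAT and RSPRY1, at Euclidean distances of 0.093, 0.098 and 0.109 in log2 normalized counts centred on the Control sh mean. Of the autophagy genes MAP1LC3B was the closest, at 0.27 and rank 156 of all tested genes.

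Promoter windows of 250 bases before the RefSeq start (GRCh38.p14) were matched for 9 of the 10 genes, UVRAG being the missing entry. They were searched on both strands for CACGTG, the core of the element bound by TFEB and its relatives, and for TGACNNNGC, the core of the antioxidant response element. Among these 9 windows the first was found in that of ATG14 alone, and in 6.34% of 35116 promoters. The second was found in that of MAP1LC3B alone, and in 10.9%. The windows of BECN1 (chr17:42823880-42824129) and ATG5 (chr6:106316267-106316516) lie inside the gene spans given above. They hold no match, but they do not show the sequence before the outermost start of either gene. The windows of ATG14 and MAP1LC3B are shown because they hold the matches. These are given in capitals and lie 21 bases and 46 bases before the start. The window of MAP1LC3B, whose RefSeq start lies inside the span given above, is chr16:87392086-87392335 on the plus strand and that of ATG14 chr14:55411831-55412080 on the minus strand, both read 5′ to 3′. A match is a description of the letters, and no binding was measured.
MAP1LC3B: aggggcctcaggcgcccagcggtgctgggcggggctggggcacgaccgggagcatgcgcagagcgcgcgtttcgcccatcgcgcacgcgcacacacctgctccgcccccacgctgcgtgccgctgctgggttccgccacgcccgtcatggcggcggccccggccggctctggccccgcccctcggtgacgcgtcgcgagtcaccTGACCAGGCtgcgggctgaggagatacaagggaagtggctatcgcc
ATG14: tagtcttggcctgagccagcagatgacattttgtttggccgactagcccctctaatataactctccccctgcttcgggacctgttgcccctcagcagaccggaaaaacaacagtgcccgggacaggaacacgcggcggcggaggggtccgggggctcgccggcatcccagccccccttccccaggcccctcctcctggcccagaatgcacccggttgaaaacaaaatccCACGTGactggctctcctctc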

How the data were processed

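RNA-seq of 3 Control sh and 3 VprBP sh samples was analysed. The authors aligned single-end reads to hg38 with STAR and quantified them per gene in Partek, and they deposited estimated counts (expected counts) that are not normalized, 59.4% of them whole numbers, and every row sums to at least 10. The labels name a SMARTER kit and the methods a strand-specific KAPA kit. The coordinates of the 10 genes equal those of GENCODE 44. Of 21494 genes, 21460 were matched to it by ID for exon lengths.

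Counts were rounded and tested with edgeR 4.0.16 in R 4.3.3 (quasi-likelihood test, upper quartile factors at 0.75, filter on low counts with a minimum of 10, no replicate block, all 6 samples), with Benjamini-Hochberg adjustment over all 16756 genes tested. Partek's own gene-specific test, which the authors used, was replaced by edgeR. On simulated counts for 15361 genes the edgeR test recovered 100% of 187 genes changed by 2 on the log2 scale, with 2 false calls. The simulation used independent samples, the same dispersion for every gene and few changed genes, unlike these data. It thus checks the working of the code and does not measure power or false calls here. Intervals are 95% intervals of the fit. Total counts ran from 18195949 to 26883948, and 3 counts correspond to 2.28 to 3.44 normalized counts, which covers counting error only. Nothing in the labels says that replicates are separate cultures, so p-values measure the spread between these samples, and an exact permutation test of 3 against 3 cannot go below 0.1. Chi-square per degree of freedom was 2.50 and 2.36 between replicates 2 and 3 of each group and 17.6 to 29.1 for pairs with replicate 1. Replicates 2 and 3 were thus much closer to each other than to replicate 1, and n = 3 may overstate the number of independent samples.

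The 10 genes and the lists were chosen with earlier results of these data known. Text names followed a written rule: the 10 genes, DCAF1, up to 4 called genes per list and direction, the 4 nearest neighbours of UVRAG on each side and the 3 genes most like it. Other names (CALCOCO2 as the remaining called cargo receptor, uncalled relatives and partners, overlapping genes) were chosen after their values were seen. Alternatives were TMM factors, library size alone, DESeq2 1.42.0, no filter, a replicate block, leaving out each sample, summing replicates 2 and 3, canonical transcript lengths and a 0.5 Mb window.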

Additional observations from a re-analysis of the deposited data

How the results depend on the processing

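The calls of UVRAG, MAP1LC3B and BECN1 and the absence of a call for the other 7 genes and DCAF1 held under all 12 alternatives. UVRAG ranged from 1.21 (DESeq2) to 1.54 (library size alone) on the log2 scale, MAP1LC3B from 1.08 to 1.41 and BECN1 from -1.37 to -1.04. ULK1, which was not called, changed sign to -0.080 with TMM factors, -0.10 with DESeq2, -0.0016 without the filter on low counts, -0.014 with the replicate block and -0.15 with replicates 2 and 3 summed, and ranged from -0.12 to 0.23 when each sample was left out. Genes of the 10 with an adjusted p-value below 0.05 numbered 5 to 9 when a sample was left out and 5 with replicates 2 and 3 summed. They numbered 6 with TMM and DESeq2 and 8 with library size alone. Other pathway genes called higher numbered 18 with library size alone, which moved the median of all genes from 0.08 to 0.29, and 9 with TMM and DESeq2. Among all genes, 3747 were called higher and 3938 lower with TMM, 3634 and 3987 with DESeq2, and 4899 and 3248 with library size alone, beside 4097 and 3681. Deviations of same-numbered samples correlated at -0.14, -0.03 and -0.11 over 13303 genes, and no sample correlated best with its own number. With so few samples per group these correlations cannot exclude a pairing, and replicate 1 stood apart from replicates 2 and 3 in both groups. The replicate block gave 4031 genes called higher and 3655 lower and changed no call among the 10. No window of 0.5 Mb or 1 Mb held a tested neighbour of PIK3C3, and medians around ATG14 (0.25) and ATG7 (-0.08) changed sign in the narrower window. Depth limits ATG9B, DEPTOR and MAP1LC3B2, which have few counts.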
